A study of Mus musculus with 12 samples.

Results

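Of the 12 arrays of the series 6 were compared, the 3 of 3T3-L1 adipocytes with a short hairpin RNA against the steroid receptor RNA activator SRA (shSRA) and the 3 of their controls (shControl). The members were taken by their sample labels, and arrays with the same replicate number were set against each other as pairs 1, 2 and 3. 3T3-L1 cells are a mouse fibroblast line of Swiss albino origin that turns into fat-storing adipocytes under hormones. Preadipocytes had been stably infected with a retrovirus, pSuperior-shSRA for the knockdown and pSuperior-shcontrol for the controls (the labels describe the latter as empty vector). Confluent cells of both groups were then differentiated with MDIT, made of troglitazone at 5 µM, insulin at 0.167 µM, dexamethasone at 1 µM and 3-isobutyl-1-methylxanthine at 0.5 mM. RNA was harvested on day 8. The comparison asks which genes of fully differentiated adipocytes change when SRA is depleted. The 6 other arrays, of ST2 cells, were not used.

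SRA is a non-coding RNA that acts as a coactivator of nuclear receptors, and the same gene, Sra1, also gives rise to a protein. Adipocyte differentiation is driven by the nuclear receptor PPARγ together with C/EBPα, and troglitazone is a ligand of PPARγ. As preadipocytes become fat cells they leave the cell cycle, turn on genes of lipid storage and insulin response, and rebuild the fibroblast-like matrix around them.

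Values are log2 expression values made by the authors with robust multi-array average (RMA), 1 for each probe set (a group of probes that reads one transcript) and array. A log2 fold change is the mean of the 3 within-pair differences, shSRA minus shControl, and a difference of 1 is a doubling. A probe set was called changed at a Benjamini-Hochberg adjusted p below 0.05 in limma's paired fit over 34958 probe sets with a single gene symbol. Where a gene had several probe sets, the called one with the highest mean is quoted, or the one with the highest mean for genes that were not called. Over the bright probe sets (mean log2 of at least 8) no array deviated from the mean of its own group by a median of more than 0.0638. This value cannot show an offset between the groups. Markers of adipocytes were among the brightest signals, with means from 12.86 to 14.93 for the 7 measured of 9, and none was called. Markers of endothelial, epithelial or nerve, macrophage or blood, muscle and osteoblast cells lay between 4.13 and 9.89, and none of these 24 was called.

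Depletion of the target was seen in every pair. Within pairs 1, 2 and 3, Sra1 went from 11.86 to 9.46, from 11.67 to 9.20 and from 11.84 to 9.62. The groups did not overlap, and the paired log2 fold change was -2.36 with a standard error of 0.09 (limma, adjusted p = 3.94e-06), or 5.13-fold less signal. Its p was the lowest of all probe sets tested.

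In all, 149 of 34958 probe sets changed with SRA knockdown. Of these, 75 were higher in shSRA adipocytes, or 0.215% of those tested, and 74 were lower, or 0.212%. They represent 118 genes, 54 higher and 64 lower, and no gene was called in both directions. Of the 71 called genes with several probe sets, 20 had more than 1 of them called. Each of the 149 moved the same way in all 3 pairs, and in 122 the shControl and shSRA arrays did not overlap, against 9.43% of all probe sets tested. Changes were moderate in size, with a median absolute log2 fold change of 0.68, and 17 probe sets changed by at least 1. At an unadjusted p below 0.05, 1581 probe sets were higher and 1626 lower. Without the pairs in the model only 7 probe sets passed, of Sra1, Rnf128, Vcan, Abi3bp, St3gal6 and Ces1d, whereas leaving out pair 1 gave 468 calls and leaving out pair 2 gave 243. The labels call the replicates biological and do not say whether they came from separate infections, so the p-values hold for these samples only. They measure the spread of the 3 within-pair differences, moderated by that of all probe sets, and not the spread between replicates.

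**Figure D1:**
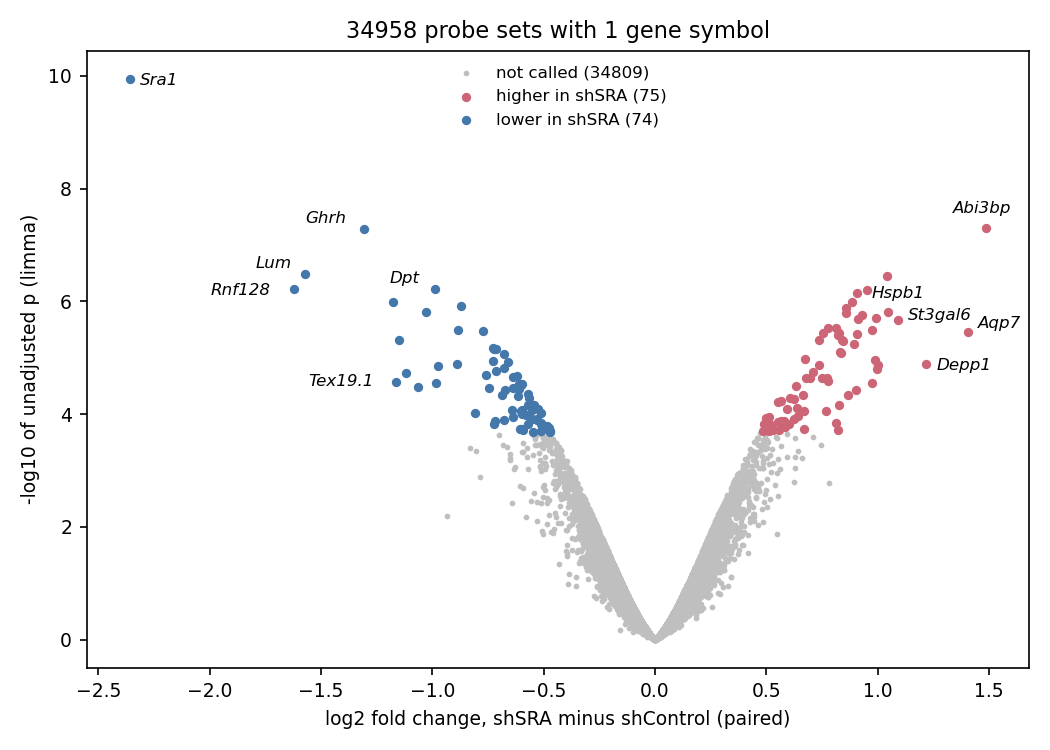
Each point is 1 of 34958 probe sets, with the log2 fold change (shSRA minus shControl, mean of 3 pairs) on the x axis and -log10 of the unadjusted limma p on the y axis. Red points are the 75 called higher and blue points the 74 called lower, and Sra1 stands alone at -2.36.

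The strongest falls after Sra1 were in genes of very different kinds. Rnf128, which encodes an E3 ubiquitin ligase, had 7.48, 6.86 and 7.12 in shControl and 5.31, 5.49 and 5.79 in shSRA adipocytes. It fell by 1.62 (standard error 0.15, adjusted p = 0.00275), and its other probe set fell by 1.18. Lum encodes lumican, a proteoglycan that binds collagen fibrils, and had 10.29, 10.88 and 11.26 against 8.97, 8.84 and 9.91. It fell by 1.57 (standard error 0.13, adjusted p = 0.00247) with no overlap between the groups. Ghrh, the growth hormone-releasing hormone, had 10.50, 9.55 and 9.08 against 9.28, 8.34 and 7.59. Here the groups overlapped, since pair 1 lay highest and pair 3 lowest in both, but each pair fell by between 1.22 and 1.49 and the mean fall was 1.31 (standard error 0.09, adjusted p = 0.000606). Among the 15 largest falls were also Tex19.1, a gene known from germ cells, which fell by 1.16, Flrt2, a membrane protein with leucine-rich repeats, by 1.15, Sertad4 by 1.12, the potassium channel gene Kcnc2 by 1.06, the fatty acyl-CoA reductase gene Far2 by 0.97 and the surface glycoprotein gene Cd200 by 0.77. Kcnc2 and Cd200 were dim, with means below 6 over the 6 arrays. Far2 was called by 1 of 2 probe sets and Flrt2 by 1 of 3, with others at -0.18 and -0.22.

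**Figure D2:**
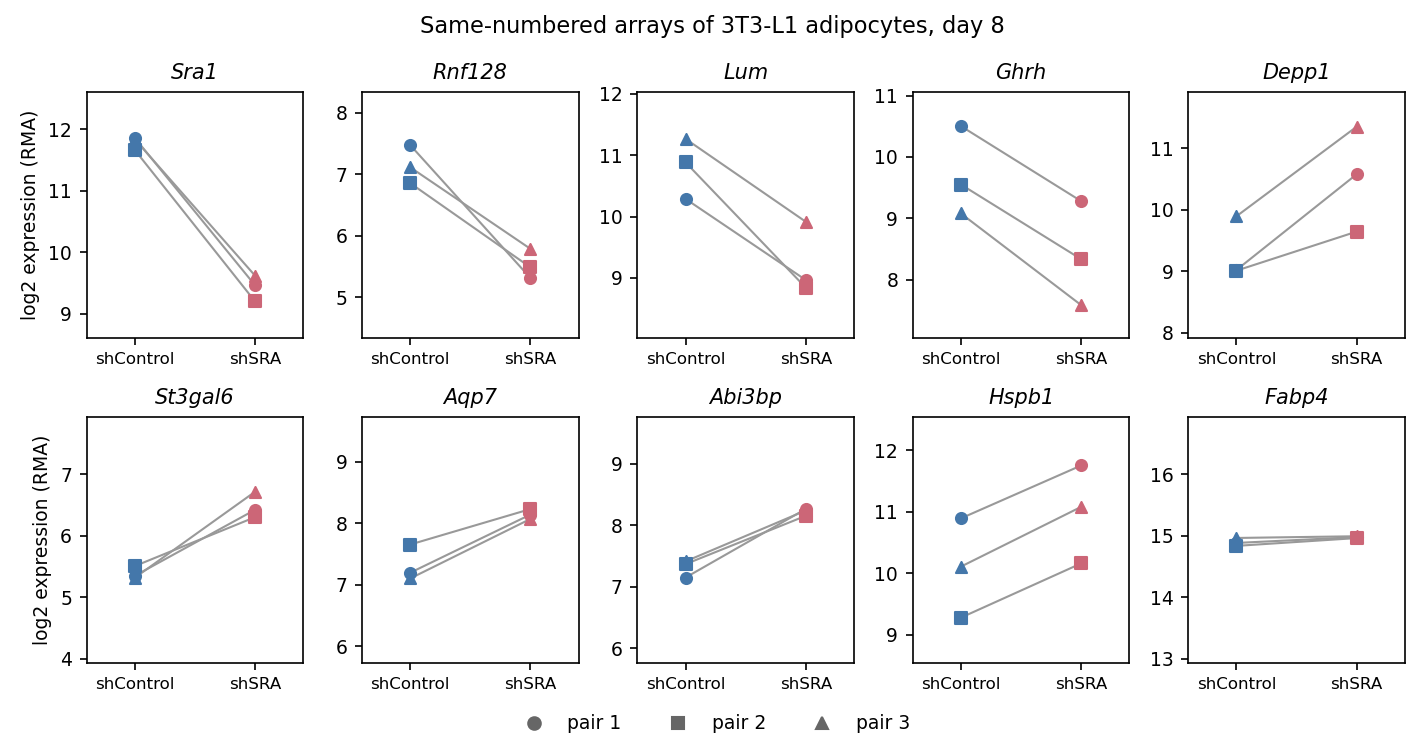
Log2 expression (y axis) of 10 genes in shControl (blue) and shSRA (red) adipocytes, with a line joining the 2 arrays of a pair and a different symbol for each pair. All panels span 4 log2 units, so slopes can be compared. Sra1, Rnf128, Lum and Ghrh go down in all 3 pairs, Depp1, St3gal6, Aqp7, Abi3bp and Hspb1 go up, and Fabp4 stays near 14.9.

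Genes of the extracellular matrix were among the falls. Of 144 measured genes in 5 matrix lists, 7 were called lower (Dcn, Lum, Mmp2, Ltbp1, Ltbp2, Fn1 and Vcan) and 2 higher (Mmp11 and Abi3bp), where 0.275% of all 18194 genes were called lower and 0.225% higher when read by the probe set of highest mean. Further, 59 of the 144 were lower in all 3 pairs and 12 were higher, or 41% and 8.33%, beside 17.3% and 14.2% of all genes. The shares of all genes given here are also the background for the counts of the other lists below. The median log2 fold change of these matrix genes was -0.09, and that of all genes -0.01. The lists were written with earlier results of these data known, so these counts describe the genes and are no independent evidence of their direction.

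Small leucine-rich proteoglycans coat collagen fibrils and bind growth factors. Of 13 measured, 2 were called lower, none higher, and 5 were lower in all 3 pairs. Decorin (Dcn), one of the brightest matrix genes, had 12.57, 12.95 and 13.05 in shControl and 11.96, 12.28 and 12.35 in shSRA adipocytes. The fall of 0.66 was even across pairs (standard error 0.08, adjusted p = 0.0091). The other probe set of Dcn, with a mean of only 5.58, differed by 0.04 and was not called. Dcn and Lum are next to each other on chromosome 10. Dermatopontin (Dpt), a matrix protein that binds decorin, had 9.16, 9.48 and 9.91 against 8.32, 8.46 and 8.81, and fell by 0.99 (standard error 0.09, adjusted p = 0.00275). Osteoglycin (Ogn) fell by 0.61 by one of its 2 probe sets.

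Genes of larger adhesive and fibre-associated matrix proteins were also lower. Versican (Vcan), a large chondroitin sulfate proteoglycan, had 10.14, 9.79 and 10.20 in shControl and 9.42, 8.99 and 9.57 in shSRA adipocytes, a fall of 0.71 (standard error 0.08, adjusted p = 0.0065). Of its 8 probe sets 4 were called, 1 of them dim, with falls from 0.62 to 0.87, and the other 4 had means of at most 5.17. Fibronectin (Fn1) had 12.61, 11.77 and 12.35 against 12.10, 11.36 and 11.82, so that the groups overlapped although each pair fell, by between 0.41 and 0.53. The adjusted p of Fn1 was 0.0434. Ltbp1 and Ltbp2, which encode proteins of elastic microfibrils (Ltbp1 also holds latent TGF-β), fell by 0.88 and 0.57. Only 1 of the 3 probe sets of Ltbp1 was called, and another was at -0.04. Mmp2, the gelatinase A gene, fell by 0.51, and Plod2, a lysyl hydroxylase that prepares collagen for crosslinks, by 0.68 by 1 of 2 probe sets. Leaving out pair 2 or pair 3 ended the calls of Fn1 (falls of 0.52 and 0.47) and Mmp2 (0.47 in both).

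No collagen gene was called by its probe set of highest mean. Of 27 measured, 16 were lower in all 3 pairs and none was higher in all 3, and the median log2 fold change was -0.09 (7 were lower and 0 higher at an unadjusted p below 0.05 in limma). Only Col11a1, a minor fibrillar collagen, was called by its dimmer probe set, with 5.71, 7.05 and 6.13 in shControl and 4.85, 5.75 and 5.20 in shSRA adipocytes and a fall of 1.03 (adjusted p = 0.00352). Its brighter probe set differed by -0.70 (adjusted p = 0.0526). Col5a1 had -0.44 (adjusted p = 0.0649). Abi3bp went against the group. This gene of a matrix protein had 7.15, 7.36 and 7.41 in shControl and 8.26, 8.15 and 8.24 in shSRA adipocytes, and rose by 0.91 (standard error 0.09, adjusted p = 0.00371). Its dimmer probe set rose by 1.49, the largest rise of the probe sets tested. Mmp11, a matrix protease, rose by 0.55 with overlapping groups, and that call was lost without pair 3 (a rise of 0.46). Has2, which makes hyaluronan, rose by 0.63.

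**Figure D3:**
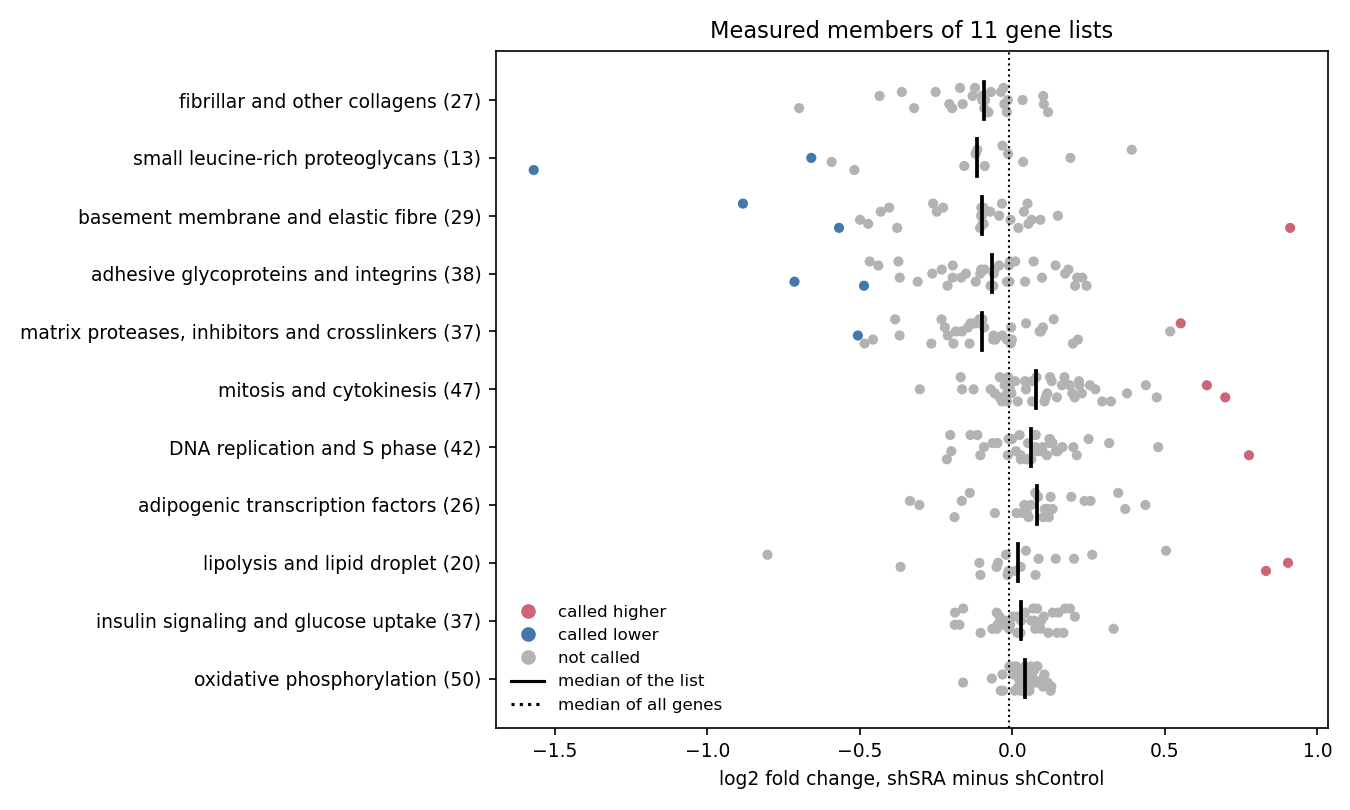
Log2 fold change (x axis) of every measured member of 11 lists (y axis, number of members in parentheses), each read by its probe set of highest mean. Red and blue points were called higher or lower, bars mark each list's median and the dotted line the median of all genes, -0.01. The medians of the 5 matrix lists at the top lie left of that line, and none of the insulin signaling or oxidative phosphorylation genes was called.

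Several of these matrix genes are also markers of preadipocytes. Of 31 measured preadipocyte and mesenchymal progenitor markers, 4 were called lower (Fn1, Dcn, Lum and Dpt) and 1 higher (S100a4). These are 12.9% and 3.23%, beside 0.275% and 0.225% of all genes. Lower in all 3 pairs were 12 and higher 2, or 38.7% and 6.45%, beside 17.3% and 14.2%. Of the 8 markers chosen to define the fibroblast, 7 were measured. Their summed signal ranged from 13498 to 19149 in shControl and from 11017 to 14164 in shSRA adipocytes, so the ranges overlapped. The sum weighs bright genes most, above all Dcn with a mean of 12.53, and so largely repeats the falls of Dcn and Lum. Pdgfra, a receptor of fibroblastic progenitors, had a log2 fold change of -0.50 (adjusted p = 0.06), Dlk1, which preadipocytes lose as they differentiate, of -0.13 (adjusted p = 0.74), and Thy1 of -0.10 (adjusted p = 0.809). Cd34, which was dim, had 0.23 (adjusted p = 0.564). S100a4 encodes a protein that binds calcium and had 9.31, 10.54 and 9.95 against 10.61, 11.01 and 10.62 and rose by 0.81 (adjusted p = 0.0413). The part of a different share of undifferentiated cells in these changes was not tested. In bulk samples fewer cells of a type and less RNA per cell cannot be told apart.

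Promoter windows were examined for the called genes. RefSeq windows (build GRCm38.p6), each from 250 bases before to 50 after a start, were found for 38 of the 54 genes called higher (49 windows) and 42 of the 64 called lower (61 windows). The nuclear receptor half-site AGGTCA, searched on both strands, was in 18.4% of the windows of higher and 21.3% of those of lower genes, beside 14.3% of 18110 windows of all measured genes and 16.3% of all 32851 windows. The steroid receptor half-site AGAACA was in 20.4% and 13.1%, beside 14.7% of measured genes. AP-1 sites (TGACTCA) were in 0% and 8.2%, beside 4.52%, and the CCAAT box in 32.7% and 47.5%, beside 37.4%. TATAAA was in 14.3% and 13.1%, beside 9.77%, and CACGTG in 4.08% and 11.5%, beside 8.72%. These matches are descriptions of letters, not of bound sites. Windows of 4 genes are shown because they stand for the groups described, Vcan and Dpt the falls of the matrix, Aqp7 the rises of lipid handling and Tmem176a a rise shared with its neighbour. Capitals mark the motifs found, and each sequence runs 5′ to 3′ on the strand of its gene.
Vcan promoter (chr13:89742463-89742762, minus strand): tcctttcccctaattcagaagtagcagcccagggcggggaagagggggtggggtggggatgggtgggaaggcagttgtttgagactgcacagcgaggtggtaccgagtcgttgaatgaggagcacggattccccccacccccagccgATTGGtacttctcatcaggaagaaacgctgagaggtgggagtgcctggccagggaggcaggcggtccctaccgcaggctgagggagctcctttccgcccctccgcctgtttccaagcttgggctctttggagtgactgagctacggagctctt
Dpt promoter (chr1:164796413-164796712, plus strand): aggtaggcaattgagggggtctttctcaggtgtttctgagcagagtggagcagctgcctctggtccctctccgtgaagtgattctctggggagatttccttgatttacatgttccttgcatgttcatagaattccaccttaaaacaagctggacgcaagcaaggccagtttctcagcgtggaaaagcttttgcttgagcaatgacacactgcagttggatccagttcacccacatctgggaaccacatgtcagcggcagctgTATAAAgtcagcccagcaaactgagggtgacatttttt
Aqp7 promoter (chr4:41048087-41048386, minus strand): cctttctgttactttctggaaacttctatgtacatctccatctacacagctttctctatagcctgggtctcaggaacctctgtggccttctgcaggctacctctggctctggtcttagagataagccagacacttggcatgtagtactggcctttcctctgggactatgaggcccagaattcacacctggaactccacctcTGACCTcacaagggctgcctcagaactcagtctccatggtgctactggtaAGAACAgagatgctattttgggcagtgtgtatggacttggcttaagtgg
Tmem176a promoter (chr6:48841233-48841532, plus strand): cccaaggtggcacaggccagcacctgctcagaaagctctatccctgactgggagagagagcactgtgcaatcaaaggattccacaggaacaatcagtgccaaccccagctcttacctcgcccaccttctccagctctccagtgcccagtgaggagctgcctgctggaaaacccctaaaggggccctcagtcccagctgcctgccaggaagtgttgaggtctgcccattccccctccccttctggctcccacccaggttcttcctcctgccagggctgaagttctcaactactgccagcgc
The capitals are a CCAAT box on the opposite strand in Vcan, TATAAA in Dpt, and in Aqp7 the half-site AGGTCA on the opposite strand followed by AGAACA. The first listed of 2 windows is shown for Aqp7 and for Tmem176a, and none of the 6 motifs was in the window of Tmem176a.

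Some genes of lipid handling were among the rises. Aqp7 encodes the channel through which adipocytes release glycerol, and had 7.20, 7.66 and 7.10 in shControl and 8.14, 8.23 and 8.07 in shSRA adipocytes. It rose by 0.83 (standard error 0.10, adjusted p = 0.00705) with no overlap, and by 1.41 by its second probe set. That second probe set is of the kind that can bind related transcripts. Ces1d, a carboxylesterase that hydrolyses triacylglycerol, had 10.20, 11.10 and 10.54 against 11.37, 11.56 and 11.63, a rise of 0.90 (adjusted p = 0.0173). All 3 of its probe sets were called, with rises from 0.90 to 1.04, and one of them is of the kind that can bind related transcripts. Abcd2, a transporter of very long-chain fatty acids into peroxisomes, rose by 0.98 and the lipid transporter gene Abca8a by 0.88. Apoc2, the cofactor of lipoprotein lipase, rose by 0.59, and Oxct1, an enzyme of ketone body use, by 0.53. Oxct1 was called by 1 of 4 probe sets, and another was at 0.18. Ppargc1a, a coactivator of oxidative metabolism, was called by 2 of its 5 probe sets, with rises of 0.68 and 0.60. The probe set at 0.68 is also of the kind that can bind related transcripts.

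Enzymes of fatty acid synthesis split. Acacb, the acetyl-CoA carboxylase at the mitochondrion, rose by 0.49 (adjusted p = 0.0479), a call that was lost when any 1 of the pairs was left out (rises from 0.43 to 0.52). Its other probe set, which was dimmer, had a log2 fold change of -0.17 and was not called. Elovl6, which elongates palmitate, had 10.46, 10.35 and 10.21 in shControl and 9.95, 9.89 and 9.76 in shSRA adipocytes and fell by 0.48 (adjusted p = 0.0438), a call lost without pair 2 or pair 3 (falls of 0.48 and 0.49). Only 1 of the 3 probe sets of Elovl6 was called, and another was at -0.04. Elovl4 and Fa2h, which elongate and hydroxylate longer fatty acids, fell by 0.72 and 0.60. Of the 27 measured genes of fatty acid and triglyceride synthesis, these calls of Acacb and Elovl6 were the only ones by the probe set of highest mean. In all 3 pairs 3 were higher and 8 lower, or 11.1% and 29.6%, beside 14.2% and 17.3% of all genes. Of 20 lipolysis and lipid droplet genes, 2 were called higher and none lower. Cidea, a lipid droplet protein, had a log2 fold change of -0.80 that missed the threshold (adjusted p = 0.07).

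Main genes of the adipocyte programme did not pass the test. Fabp4 had 14.88, 14.83 and 14.96 in shControl and 14.98, 14.96 and 14.99 in shSRA adipocytes. Its log2 fold change was 0.08, with a confidence interval (95%) from -0.10 to 0.27. Fabp4, Lpl and Adipoq lay close to the highest value on these arrays, 15.12, where a rise may not be measurable. The 3 dimmer probe sets of Fabp4, with means from 11.85 to 13.24, were not called either, and the largest of their log2 fold changes was 0.21. Corresponding intervals were -0.10 to 0.27 for Pparg, -0.13 to 0.24 for Cebpa, -0.14 to 0.23 for Adipoq and -0.17 to 0.22 for both Slc2a4, the insulin-responsive glucose transporter, and Lpl. Of 26 adipogenic transcription factors, none was called. In all 3 pairs 12 were higher and 3 lower, or 46.2% and 11.5%, beside 14.2% and 17.3% of all genes. Of 37 genes of insulin signaling and glucose uptake, none was called by the probe set of highest mean, while 2 and 1 were higher and lower at an unadjusted p below 0.05 in limma. Higher in all 3 pairs were 10 and lower 2, or 27% and 5.41%, beside the same 14.2% and 17.3%. Irs1 had 0.19, Foxo1 0.20, Insr -0.05 and Akt2 -0.01, and the lowest adjusted p of these was 0.485, of Foxo1. Of 50 oxidative phosphorylation genes none was called, nor had any an unadjusted p below 0.05 in limma, and their median was 0.04. Higher in all 3 pairs were 14 of them and lower 4, or 28% and 8%.

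Among iron and acute phase genes, Cp and Hp rose and Heph fell. Ceruloplasmin (Cp), a secreted copper protein that oxidises iron, had 11.32, 10.91 and 11.30 in shControl and 11.96, 11.78 and 12.32 in shSRA adipocytes. It rose by 0.84 (standard error 0.10, adjusted p = 0.00512), and 6 of its 8 probe sets were called. Hephaestin (Heph), the membrane-bound relative of ceruloplasmin, went the other way, with 8.51, 8.36 and 8.37 against 7.81, 7.46 and 7.78 and a fall of 0.73 (adjusted p = 0.0089). Haptoglobin (Hp), which binds free hemoglobin, had 13.34, 13.48 and 13.73 against 14.00, 13.98 and 14.13, a rise of 0.52 (adjusted p = 0.0416). Of 25 acute phase and metal-binding genes measured, 2 were called higher and none lower, or 8% and 0%, beside 0.225% and 0.275% of all genes. Those called were Cp and Hp. Heph was not a member of that list, so its fall is not in the count.

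Secreted inhibitors and receptors of Wnt signaling were changed in both directions. Sfrp2, a secreted protein that binds Wnt ligands, had 8.82, 9.27 and 9.56 in shControl and 10.23, 9.94 and 10.48 in shSRA adipocytes. It rose by 1.00 (standard error 0.13, adjusted p = 0.00953). Apcdd1, a membrane inhibitor of Wnt, rose by 0.84, and 4 of its 6 probe sets were called. The probe set quoted is of the kind that can bind related transcripts. Called probe sets of Apcdd1 that are not of this kind rose by 0.90 and 0.82. Dkk2, another secreted Wnt antagonist, had 5.63, 5.78 and 5.37 against 4.74, 4.60 and 4.79 and fell by 0.89 (adjusted p = 0.00953). The receptor gene Ror1 fell by 0.61 by 1 of its 3 probe sets, with a mean of only 5.02, and another was at 0.03. Of 42 Wnt pathway genes measured, 2 were called higher and 1 lower, and their median was -0.03. Receptors for other signals were among the falls too. The angiotensin receptor Agtr2 fell by 0.98 from a dim level, with 4.30, 5.50 and 5.08 against 3.76, 4.12 and 4.05, and S1pr3 and Lpar1, receptors of the lysophospholipids, fell by 0.61 and 0.60. Sphk1, which makes the ligand of S1pr3, fell by 0.68. Adcyap1r1, a receptor of the peptide PACAP, rose by 0.78, and Lifr, which takes part in the receptor of leukemia inhibitory factor, by 0.57. Each was called by 1 of 3 probe sets, and another of Lifr was at -0.09.

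Several of the largest rises belong to no single pathway. Depp1, a gene induced by FOXO transcription factors, had 9.02, 9.01 and 9.89 in shControl and 10.58, 9.64 and 11.35 in shSRA adipocytes. It rose by 1.22 (standard error 0.15, adjusted p = 0.00953), with a smaller rise in pair 2. The groups of Depp1 overlapped, and its other probe set, at 0.29, was not called. St3gal6, a sialyltransferase gene, had 5.35, 5.51 and 5.32 against 6.42, 6.30 and 6.72 and rose by 1.09 (standard error 0.11, adjusted p = 0.00371). Its values within a group were close, and the groups did not overlap. Of the 5 probe sets of St3gal6, 2 were called, and another was at -0.02. Hspb1, a small heat shock protein, had 10.89, 9.28 and 10.11 against 11.75, 10.16 and 11.08. Its groups overlapped widely because pair 1 was high and pair 2 low in both, and the rise of 0.91 lay between 0.86 and 0.97 in the pairs (adjusted p = 0.00277). The carboxypeptidase gene Cpm rose by 0.86, Ly6h by 0.86, Pdzd2 by 0.87 and Phkg1, the catalytic subunit of phosphorylase kinase, by 0.83. Pdzd2 was called by 2 of 4 probe sets, and another was at 0.04.

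Tmem176a and Tmem176b, neighbouring genes of related membrane proteins on chromosome 6, rose together. Tmem176a had 8.95, 9.60 and 9.32 in shControl and 9.83, 9.97 and 10.09 in shSRA adipocytes, and Tmem176b, from 10.08, 10.71 and 10.49 in shControl, was higher by 0.92, 0.43 and 0.57 in pairs 1, 2 and 3. Neither gene had overlapping groups. The rises were 0.67 (adjusted p = 0.0302) and 0.64 (adjusted p = 0.0364). The call of this Tmem176a probe set was lost without pair 3 (a rise of 0.62). The genes lie on opposite strands, and the first listed promoter window of Tmem176b shares 155 bases with the window of Tmem176a shown above. Of 27 measured CD20-like and tetraspan membrane proteins, they were the only members called.

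A few genes of cell division, all of low signal, were higher in shSRA adipocytes. Mki67, a marker of proliferating cells, had 5.13, 5.14 and 4.89 in shControl and 5.62, 5.96 and 5.67 in shSRA adipocytes. It rose by 0.70 (standard error 0.09, adjusted p = 0.0131). Ube2c, an enzyme that marks mitotic proteins for destruction, had 6.34, 6.41 and 6.37 against 7.13, 7.15 and 6.75, a rise of 0.64 (adjusted p = 0.0298). Pclaf, which binds the replication clamp, rose by 0.78 and Top2a by 0.57, each by 1 of 3 probe sets, and the dimmer probe sets of Pclaf were at -0.11 and -0.08. Of 47 mitosis genes measured, 2 were called higher (4.26%, beside 0.225% of all genes) and none lower. In all 3 pairs 17 were higher and 4 lower, or 36.2% and 8.51%, beside 14.2% and 17.3% of all genes. Of 42 replication and S phase genes, 1 was called higher (2.38%) and none lower, and 12 and 3 (28.6% and 7.14%) were higher and lower in all 3 pairs. The medians of the mitosis and the replication list were 0.08 and 0.06.

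Other cell cycle genes that had been fixed by name did not pass the test in the paired fit. Mcm5, a helicase subunit, had 6.56, 6.67 and 6.61 against 6.85, 7.29 and 7.13, with no overlap and a log2 fold change of 0.48 (adjusted p = 0.0684). This Mcm5 probe set is of the kind that can bind related transcripts. Ncapd2 had 0.38 (adjusted p = 0.152), Ccna2 0.32 (adjusted p = 0.188), Cdc20 0.23 (adjusted p = 0.564) and Bub1 0.22 (adjusted p = 0.492). Without pair 1, Mcm5 (0.57) and Ncapd2 (0.45) passed. Neither passed without pair 2 (0.41 and 0.38) or without pair 3 (0.46 and 0.29). The cell cycle inhibitors Cdkn1a and Cdkn1b had 0.04 and 0.25, with intervals from -0.16 to 0.24 and from 0.02 to 0.48, and no member of their list of 24 was called.

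Few inflammatory and interferon genes were called, and in both directions. Ifi27l2a, an interferon-inducible gene, had 8.96, 9.42 and 9.74 in shControl and 9.93, 10.05 and 11.14 in shSRA adipocytes and rose by 0.99 (adjusted p = 0.0108). Usp18, which removes the ubiquitin-like protein ISG15, fell by 0.60, a call lost without pair 3 (a fall of 0.52). Ifit1 had -0.58 (adjusted p = 0.273) and passed without pair 3 (-0.91), but not without pair 1 (-0.46) or pair 2 (-0.37). Oas1a had -0.03 (adjusted p = 0.965). Of 45 interferon response genes 1 was called higher and 1 lower. Nlrc5, an activator of MHC class I genes, rose by 0.58, a call lost without pair 2 (a rise of 0.46). Of the 18 class I and antigen processing genes, 8 were higher in all 3 pairs and 2 lower. These are 44.4% and 11.1%, beside 14.2% and 17.3% of all genes. The cytokine gene Il15 fell by 0.72, a call lost without pair 3 (a fall of 0.74). Zfp36, which shortens the life of cytokine mRNAs, had 0.40 (adjusted p = 0.159) and the chemokine gene Ccl2 0.34 (adjusted p = 0.364). Both passed without pair 1 (0.51 and 0.47), and neither without pair 2 (0.37 and 0.17) or pair 3 (0.31 and 0.37). Tlr4, the receptor of lipopolysaccharide, had 0.26 (adjusted p = 0.355), and of 45 genes of the toll-like receptor, TNF and NF-κB pathways none was called (in limma, 5 had higher values and 1 a lower one with p below 0.05 before adjustment). Sema3g, a secreted guidance cue, fell by 0.47, a call lost without pair 2 or pair 3 (falls of 0.50 and 0.46).

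Pairs differed from each other as well as from shControl to shSRA. In the same fit, 1174 probe sets, or 3.36% of those tested, differed between replicate numbers, and 38 of the 149 called ones were among them. Of the 118 called genes, 22 had groups that overlapped, and 21 of these 22 differed between replicate numbers. In these genes the pairs lay at different levels and each pair moved the same way. Ccn1, a secreted matrix-associated protein, had the widest range of pair means (10.24, 7.98 and 8.74) with a knockdown change of -0.23 (adjusted p = 0.55), and Ghrh, Hspb1 and Mmp11 were among the 20 widest. Responses also varied in size. Over the 75 probe sets called higher the median difference was 0.77 in pair 1, 0.64 in pair 2 and 0.83 in pair 3, and the rise was smallest in pair 2 for 30 of the 54 genes called higher. Falls had medians of -0.65, -0.65 and -0.63, and the fall was smallest in pair 1 for 31 of the 64 genes called lower, in pair 2 for 16 and in pair 3 for 17.

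**Figure D4:**
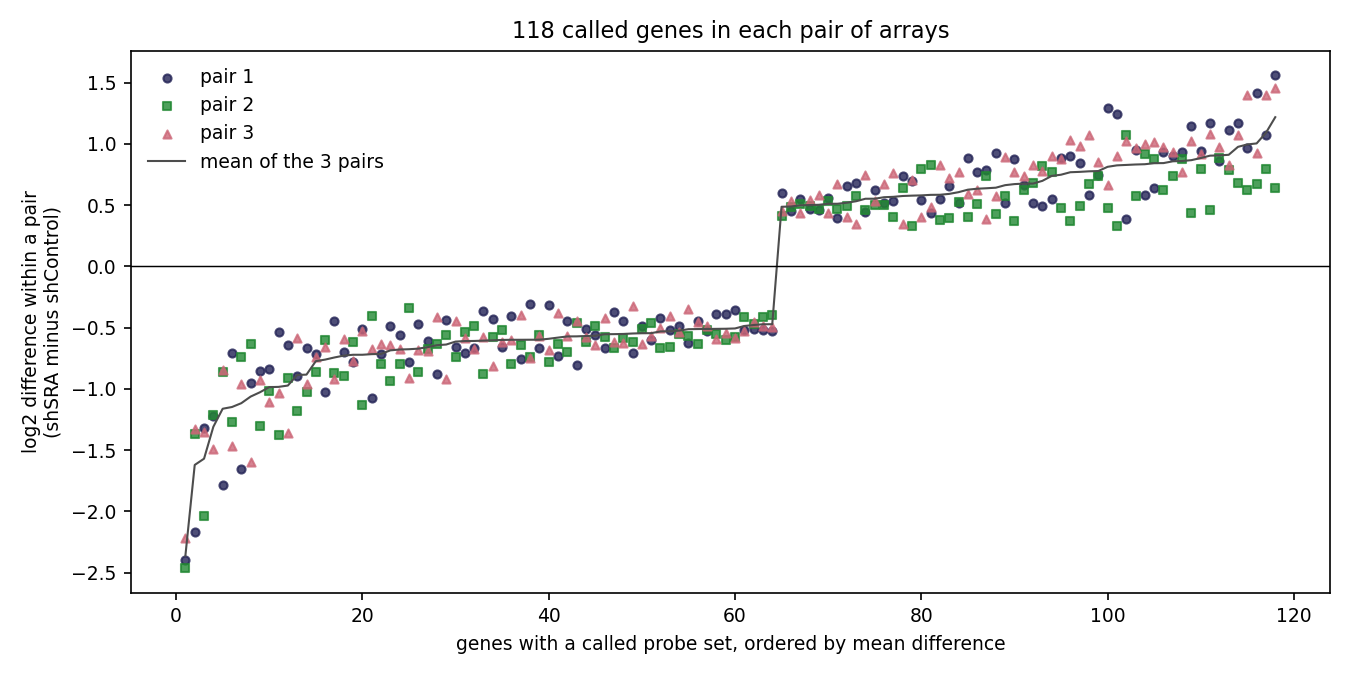
Log2 difference within each pair (y axis, shSRA minus shControl) for the 118 called genes, ordered along the x axis by their mean difference (grey line). Circles, squares and triangles are pairs 1, 2 and 3, and all points of a gene lie on one side of 0.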

How the data were processed

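Of 12 Affymetrix mouse expression arrays 6 were analysed here, 3 per group. The authors turned probe intensities into log2 expression values with RMA over their arrays, and these deposited log2 values were used unchanged; no source used here gives the versions of their software. In R 4.3.3 with limma 3.58.1, a linear model with the replicate number as a block was fitted to 34958 probe sets with 1 gene symbol (932 had several, 9211 none), followed by eBayes and Benjamini-Hochberg adjustment at 0.05. Same-numbered arrays were paired by the definition of this comparison. The labels do not say that a number marks a shared batch or day. Deviations from the group means correlated at 0.49, 0.48 and 0.25 for same-numbered arrays. For arrays of unlike number the correlations ran from -0.42 to 0.08. Deviations within a group cancel out, so these correlations are not independent of each other. No filter on level was used. The study's own model used all arrays without pairs. The 43 lists (1314 of 1422 entries measured) and the rule for named genes (Sra1, the 15 largest rises and falls, up to 4 called members of a list, and genes fixed by name) were chosen with earlier results of these data known. Further genes and probe sets are described from the table of called genes after their values were seen. In simulated arrays of this comparison (34958 probe sets, 200 changed), 92% were recovered at a log2 change of 0.5, with 14 false calls. The fit without the replicate block recovered 0% at that size. The simulation used independent normal noise with the variances of the paired fit, and an equal change in all pairs. It therefore describes the fit where its model holds, and not how many real changes were missed. The number of arrays limits the precision. Alternatives are given below.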

Additional observations from a re-analysis of the deposited data

How the results depend on the processing

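The number of calls depended on how the spread was modelled. The direction of the 149 called probe sets says little about stability. Most of the 12 alternatives leave the fold change as it is, and all 3 pairs already moved one way. Centring on bright probe sets shifts every fold change alike, taking the median over all from -0.006 to -0.030. The smallest called change was 0.47 in size, so this shift could not turn any. None turned after a second quantile normalization, where the median was -0.002. Without the replicate block 7 were called (4 higher, 3 lower), all 7 among the 149, and with the block as a random effect 47 (21 and 26). After a second quantile normalization 75 were called (42 and 33), after centring on bright probe sets 63 (34 and 29), and with a trend in the prior variance 435 (228 and 207). The cause was not tested. Leaving out each pair in turn gave from 141 to 468 calls, from 63 to 257 higher and from 78 to 211 lower, and the log2 fold change of Sra1 ranged from -2.43 to -2.31. With 2 pairs the fit has 1 residual degree of freedom and leans on the prior. Its prior degrees of freedom were 19.83 without pair 1, infinite without pair 2 and 9.75 without pair 3, against 8.05 in the main fit. The prior thus changed along with the pairs, and these cannot be told apart in calls lost or gained. Without pair 3, Il15 lost its call at a fall of 0.74, against 0.72 in the main fit. A filter on level (165), on variance (140), all probe sets of the array (139) and a robust prior (148) stayed near 149. The count differing between replicate numbers was 838 after a second quantile normalization. The 73 named genes include some that were not called in the main fit. Without the block 46 lost their call and none gained one. By the probe sets quoted, only Sra1, Rnf128, St3gal6 and Abi3bp kept theirs.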

Other observations

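Probe sets without a single gene symbol were left out of the comparison. When all probe sets of the array were fitted together, 20 of these 10143 were called, 14 higher and 6 lower in shSRA adipocytes, or 0.197%, against 0.398% of those with a single symbol.

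Genes that differed between replicate numbers whatever the vector were highest in pair 1 for 360 genes, in pair 2 for 134 and in pair 3 for 100. The widest ranges of pair means included Atf3 (9.60, 8.57 and 7.68 in pairs 1 to 3), Ddit3 (12.35, 12.61 and 11.19), Ppp1r15a (11.85, 11.35 and 10.50) and Ddit4 (10.38, 11.33 and 9.78), which are known as genes of cellular stress, and Klf4 (9.25, 7.93 and 7.53) and Egr1 (9.32, 8.08 and 8.57), which respond early to serum and growth factors. None of these 6 was called for the knockdown.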
